A study of Mus musculus with 70 samples.

Results

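The respiratory chain was followed through 96 of the 34677 genes measured, of which 13 lie in the mitochondrial DNA and 83 in the nuclear chromosomes. The members were all the genes whose symbols name a mitochondrially encoded protein (mt-) or a subunit of complex I (Nduf with a letter a, b, c, s or v and a number), II (Sdha to Sdhd), III (Uqcr), IV (Cox4 to Cox8) or V (Atp5), with pseudogenes left out. By complex, the mitochondrial genes divide into 7 of complex I, 1 of III, 3 of IV and 2 of V, and the nuclear genes into 36 of complex I, 4 of II, 8 of III, 18 of IV and 17 of V. These assignments follow the symbols. The members Atp5s and Atp5sl, counted in complex V, have the RefSeq symbols Dmac2l and Dmac2, which do not name synthase subunits. The rule uses symbols and no measured value, but it was set with earlier results of these data known. Mitochondrial and nuclear genes are kept apart throughout.

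Untreated mice without an engineered allele were used to compare regions that govern energy balance with other brain regions, the embryonic brain and pluripotent cells. RNA was sequenced from 70 libraries of C57BL/6 mice (C57BL/6NTac for the brain samples, by the study's methods). Of these, 57 came from 18 regions of the P56 brain (males, by the study's methods), 9 from 4 regions of the E14.5 brain and 4 from a pair of lines of mouse embryonic stem cells (mESC). The adult regions were the anterior cingulate area (ACA), frontal pole (FRP) and entorhinal area (ENT) of the cerebral cortex, the nucleus accumbens (ACB), the ventral tegmental area (VTA), the arcuate (ARH), ventromedial (VMH), dorsomedial (DMH), paraventricular (PVH) and lateral (LHA) areas of the hypothalamus, the parabrachial nucleus (PB), nucleus of the solitary tract (NTS) and dorsal vagal complex (DVC) of the hindbrain, the cerebellar nuclei (CBN), and the central lobule (CENT2), culmen (CUL4-5), uvula (UVU) and flocculus (FL) of the cerebellar cortex. The embryonic regions were forebrain (F, 1 library), midbrain (M, 2), hindbrain (H, 3) and the terminal and peduncular hypothalamus (THy-PHy, 3), and the mESC lines B6-1 and B6-2 had 2 libraries each. Each mESC line is 1 clone, grown on gelatin after its feeder cells had been removed. By the study's methods, the mESC medium then held leukaemia inhibitory factor, small-molecule inhibitors and medium conditioned by feeder cells. The part of these additions in the mESC values was not tested. Brain libraries were made from punches pooled over several mice, apart from 1 ACB library from a single mouse. The study used fewer mice than there are brain libraries, so libraries of different regions share animals, which the tests treat as independent. P-values measure the spread between pools or between cultures. The study prepared its samples in 9 batches, and the labels do not give the batch of a library. The RNA of mESC was extracted with another kit than that of the brain punches. Effects of stage and of batch or kit therefore cannot be told apart here.

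The respiratory chain sits in the inner mitochondrial membrane. Complexes I (NADH dehydrogenase) and II (succinate dehydrogenase) pass electrons to coenzyme Q, complex III hands them on to cytochrome c, and complex IV (cytochrome c oxidase) gives them to oxygen, while complex V (ATP synthase) uses the proton gradient so built to make ATP. The mitochondrial genome encodes core subunits of all of these except complex II, and the nucleus encodes the rest, so each of the mixed complexes needs both genomes. Several complex IV subunits exist as pairs of genes, 1 used in most tissues and 1 restricted to tissues such as heart, skeletal muscle or testis. Neurons rely heavily on this pathway, whereas early embryonic and dividing cells also draw on glycolysis.

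Promoters of nuclear members are shown first because these genes moved together in most comparisons. RefSeq start sites on GRCm38.p6 gave 75 windows of 300 bases (250 before and 50 after the start) for 69 of the 83 nuclear members. The core letters of motifs bound by 3 factors known to act on respiratory genes were searched on both strands: CCGGAAG (ETS family, which includes GABP), TGCGCA (NRF-1, its own reverse complement) and ATGGCG (YY1). CCGGAAG was in 16 of the 75 windows (21.3%), against 8.9% of all 32851 windows of this length. TGCGCA was in 19 (25.3%, against 7.8%) and ATGGCG in 22 (29.3%, against 8.9%), and at least 1 of the 3 was in 48 (64%, against 21.8%). A match is a string of letters and not a measured binding site. ATGGCG begins with the letters of a start codon (ATG), and the windows run 50 bases past the start. Such a match can therefore lie in coding sequence. Matches did not follow expression in every member. The windows of Ndufa4 (mean 784 TPM), Atp5g3 (655 TPM), Atp5o (602 TPM), Cox7b (484 TPM) and further well expressed members held none of these letters. That of Cox7b2 (1.93 TPM) held ATGGCG. The windows printed here are examples, and a relation of matches to expression was not tested. The windows of Cox6a1, Sdha and Uqcrc1, whose genes are expressed in every library, are given beside that of Cox8b, a gene with 0 TPM in many libraries, with motif letters in capitals. Cox6a1 (chr5:115348909-115349208, minus strand) held 1 match of each motif, Sdha (chr13:74350191-74350490, minus strand) 2 of NRF-1, Uqcrc1 (chr9:108936398-108936697, plus strand) 2 of NRF-1 side by side, and Cox8b (chr7:140900397-140900696, minus strand) none of these letters.
Cox6a1: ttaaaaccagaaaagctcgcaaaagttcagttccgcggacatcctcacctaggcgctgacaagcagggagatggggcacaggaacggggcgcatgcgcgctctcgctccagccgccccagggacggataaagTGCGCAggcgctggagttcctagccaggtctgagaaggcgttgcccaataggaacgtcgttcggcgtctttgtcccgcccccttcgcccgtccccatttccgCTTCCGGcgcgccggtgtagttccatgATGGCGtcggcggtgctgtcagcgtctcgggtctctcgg
Sdha: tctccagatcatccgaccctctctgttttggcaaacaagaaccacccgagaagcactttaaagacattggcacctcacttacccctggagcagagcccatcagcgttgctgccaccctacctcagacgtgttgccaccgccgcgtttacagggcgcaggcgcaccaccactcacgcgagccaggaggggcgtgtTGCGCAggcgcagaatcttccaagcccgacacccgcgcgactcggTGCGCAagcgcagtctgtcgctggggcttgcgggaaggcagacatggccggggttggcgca
Uqcrc1: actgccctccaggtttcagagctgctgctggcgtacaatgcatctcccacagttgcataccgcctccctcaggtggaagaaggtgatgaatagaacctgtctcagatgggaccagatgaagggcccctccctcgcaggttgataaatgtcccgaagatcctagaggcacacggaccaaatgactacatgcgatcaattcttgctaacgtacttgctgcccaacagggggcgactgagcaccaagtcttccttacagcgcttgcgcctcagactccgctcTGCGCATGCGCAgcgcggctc
Cox8b: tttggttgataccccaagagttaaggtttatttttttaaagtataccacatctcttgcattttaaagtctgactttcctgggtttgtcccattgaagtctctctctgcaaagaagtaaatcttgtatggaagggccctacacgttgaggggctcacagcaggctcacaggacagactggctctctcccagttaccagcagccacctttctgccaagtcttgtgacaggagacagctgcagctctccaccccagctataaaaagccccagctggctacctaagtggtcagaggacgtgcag

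Levels are given in TPM, a unit of transcript abundance that is scaled for transcript length within each library, and tests used estimated counts (edgeR's quasi-likelihood test over 19980 genes, with p-values adjusted over all of them). A call means an adjusted p below 0.05, and fold changes are on the log2 scale with their standard errors. Total counts per library lay between 9074581 and 22229582, with a median of 17016935. The marker lists used next were chosen with earlier results of these data known. Several labelled regions carried their markers: summed dopamine neuron markers reached 694.4 to 2212 TPM in VTA against at most 235.8 in other adult libraries, striatal markers 1722 to 2274 TPM in ACB against at most 259.8, and pluripotency markers 4727 to 5057 TPM in mESC against at most 42.0 elsewhere. Hindbrain markers were 180.0 to 224.5 TPM in NTS and DVC but only 13.44 to 22.43 TPM in PB. CBN had 30.41 to 83.23 TPM of them and FL 22.02 to 46.78 TPM. Hypothalamus markers were 138.1 to 1907 TPM in ARH, VMH, DMH and LHA but only 9.548 and 12.63 TPM in PVH, inside the range of the adult libraries outside the hypothalamus (at most 14 TPM). In bulk tissue, a smaller number of cells of a type and less RNA per cell cannot be told apart.

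Mitochondrial transcripts made up a large and variable part of each library. Over the 57 adult libraries the 13 genes took between 5.551% and 39.62% of all TPM, with a median of 7.711%. The embryonic libraries ranged from 2.69% to 22.56% (median 6.104%, n = 9), and the mESC libraries lay at 3.58% and 3.55% (B6-1) and 5.14% and 4.89% (B6-2). A pair of libraries stood far above the others of their region: VTA replicate 1 at 39.62%, beside 6.02% and 14.18% in the other VTA libraries, and H replicate 1 at 22.56%, beside 11.81% and 6.10%. These libraries also had the lowest nuclear shares of their stages. Results that rest on them are given with and without them.

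The nuclear genes were measured as a share of the TPM left after the mitochondrial genes were taken out, so that a high mitochondrial share could not lower them. This nuclear share was highest in the adult brain (1.999% to 4.176%, mean 3.312% ± 0.479, SD, n = 57), lower in mESC (2.217% to 2.3%, mean 2.258% ± 0.0396, n = 4) and lowest in the embryonic brain (1.234% to 2.109%, mean 1.785% ± 0.325, n = 9). Without the VTA and H libraries named above, the adult range was 2.393% to 4.176% and the embryonic range 1.49% to 2.109%, so that no embryonic or mESC library reached the lowest adult one. Adult libraries had a higher median than embryonic ones in each of the 5 complexes, whereas in complex I the mESC median (0.5745%) lay below the embryonic one. Median nuclear shares of complex I were 1.058% in adult and 0.602% in embryonic libraries, of complex II 0.111% and 0.0585%, of complex III 0.315% and 0.161%, of complex IV 0.880% and 0.444%, and of complex V 0.983% and 0.588%.

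**Figure D1:**
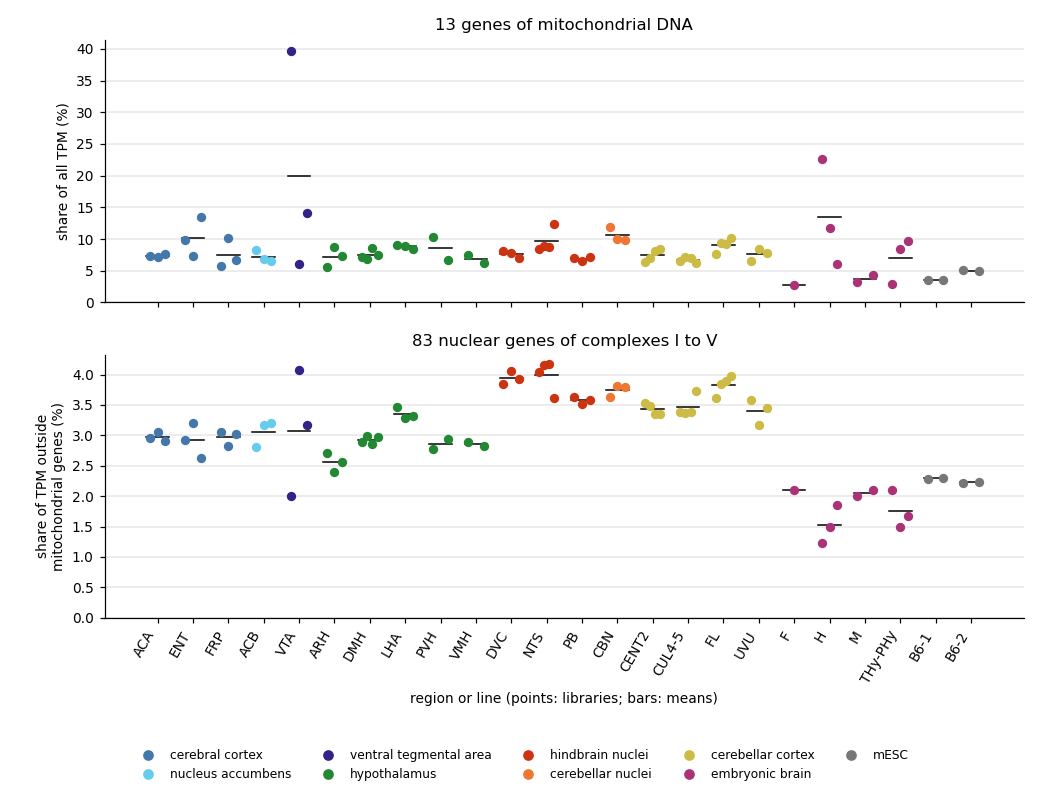
Share of all TPM on the 13 mitochondrial genes (upper panel, %) and share of the remaining TPM on the 83 nuclear genes (lower panel, %) in each library, by region or line, with bars at the means. VTA replicate 1 (39.62%) and H replicate 1 (22.56%) stand apart in the upper panel, and in the lower panel the embryonic libraries lie between 1.234% and 2.109% while the NTS and DVC libraries lie between 3.61% and 4.18%.

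Embryonic brain had lower levels of nearly the whole nuclear set than adult brain, in all 5 complexes. Of the 82 nuclear members tested, 77 fell and 1 rose, where 36.7% of all genes tested fell and 37.6% rose, and the median log2 fold change over the members was -0.93 beside 0 over all genes. More than 2-fold lower were 31 members, against 19.9% of all genes. By complex, 35 of 36 members of complex I fell, 4 of 4 of II, 8 of 8 of III, 15 of 17 of IV and 15 of 17 of V. The comparison set the mean of the 4 embryonic regions against the mean of the 18 adult regions, and the call held for 77 members as well without VTA replicate 1 and H replicate 1.

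The core subunits show what this means gene by gene. Ndufs1 (ENSMUSG00000025968.16, GRCm38 chromosome 1, 63143596 to 63176833), a large iron-sulphur subunit of complex I, stood at 71.97 TPM in F, 59.68, 68.9 and 83.77 TPM in H, 89.68 and 81.61 TPM in M, and 72.15, 71.93 and 63.16 TPM in THy-PHy. Over the adult libraries its lowest, median and highest levels were 72.77, 123.1 and 156.2 TPM. The ranges overlap at their edges, and the log2 fold change was -1.06 ± 0.04 (adjusted p = 2.64e-28, edgeR).

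Sdha (ENSMUSG00000021577.14, chromosome 13, 74322254 to 74350280), the flavoprotein of complex II, had 199.3 TPM in F, 74.74, 104.5 and 112.5 TPM in H, 147.4 and 143.5 TPM in M, and 190.3, 126.9 and 108.9 TPM in THy-PHy. Its adult levels ran from 201.2 through a median of 346.2 to 548.0 TPM, so no embryonic library reached an adult one. It fell by 1.69 ± 0.04 on the log2 scale (adjusted p = 3.48e-40, edgeR), the largest fall among the 12 core genes chosen to stand for the 5 complexes.

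In complex III, Uqcrc1 (ENSMUSG00000025651.14, chromosome 9, 108936633 to 108949623), a core protein of the matrix side, ran from 45.86 through 130.2 to 184.6 TPM in the embryonic libraries and from 73.6 through 291.3 to 382.7 TPM in the adult ones, a log2 fold change of -1.02 ± 0.07. The TPM of its listed transcripts add up to 0.5 of its gene TPM in every library, so its printed levels may be doubled, which leaves the fold unchanged. Cox4i1 (ENSMUSG00000031818.12, chromosome 8, 120668222 to 120674207), the common form of subunit 4 of complex IV, ran from 223.5 through 615.1 to 707.9 TPM in embryonic libraries and from 447.3 through 1353 to 1767 TPM in adult ones, a log2 fold change of -1.25 ± 0.08 (adjusted p = 1.68e-19, edgeR). Among the adult libraries only VTA replicate 1 fell inside the embryonic range of Cox4i1, the next adult library being at 829.6 TPM.

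Atp5b (ENSMUSG00000025393.12, chromosome 10, 128083273 to 128090391), the catalytic beta subunit of complex V, stood at 1122 TPM in F, 461.2, 553.8 and 894.9 TPM in H, 930.8 and 998.4 TPM in M, and 1018, 563.7 and 719.6 TPM in THy-PHy, against 572.0, 1615 and 2105 TPM (lowest, median and highest) in adult libraries. It fell by 0.88 ± 0.07 on the log2 scale (adjusted p = 7.44e-18, edgeR). All 12 core genes were called lower, with Atp5o, which links the stalk to the catalytic head of the synthase, at the small end (-0.43 ± 0.05).

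The exceptions were few. Cox6b2, the testis form of a complex IV subunit, was the 1 nuclear member that rose (0.61 ± 0.18, adjusted p = 0.00219, edgeR). The members not called were Atp5e (-0.24 ± 0.13), Ndufa7 (-0.13 ± 0.09), Atp5g2 (0.03 ± 0.20) and Cox8b, whose libraries were all at 0 in H and M, so that its fitted fold rests on the prior count and is not given. Atp5g2, 1 of 3 genes for the same ring subunit of the synthase, differed strongly among the embryonic libraries. It stood at 310.4 TPM in F, 122.1 and 171.3 TPM in M and 251.0, 48.98 and 42.94 TPM in THy-PHy, and at 10.98, 24.52 and 66.38 TPM in H.

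Embryonic libraries were not alike in this pathway. F, both M libraries and THy-PHy replicate 1 had mitochondrial shares of 2.69% to 4.36% and Cox5a levels of 238.1 to 318.1 TPM, while the H libraries and THy-PHy replicates 2 and 3 had mitochondrial shares of 6.10% to 22.56% and Cox5a at 78.64 to 123.6 TPM. Cox5a is a small subunit on the matrix side of complex IV. mt-Co1 (mitochondrial genome, 5328 to 6872), the catalytic subunit of complex IV, stood at 6079 TPM in F, 7467 and 8364 TPM in M and 6989 TPM in THy-PHy replicate 1. It stood at 18010, 15250 and 10730 TPM in H and at 12880 and 13400 TPM in THy-PHy replicates 2 and 3. The 3 THy-PHy libraries, replicates of 1 region, therefore lay on both sides. The RNA integrity of each library is not in these files, and the study sequenced only samples above a set integrity.

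**Figure D2:**
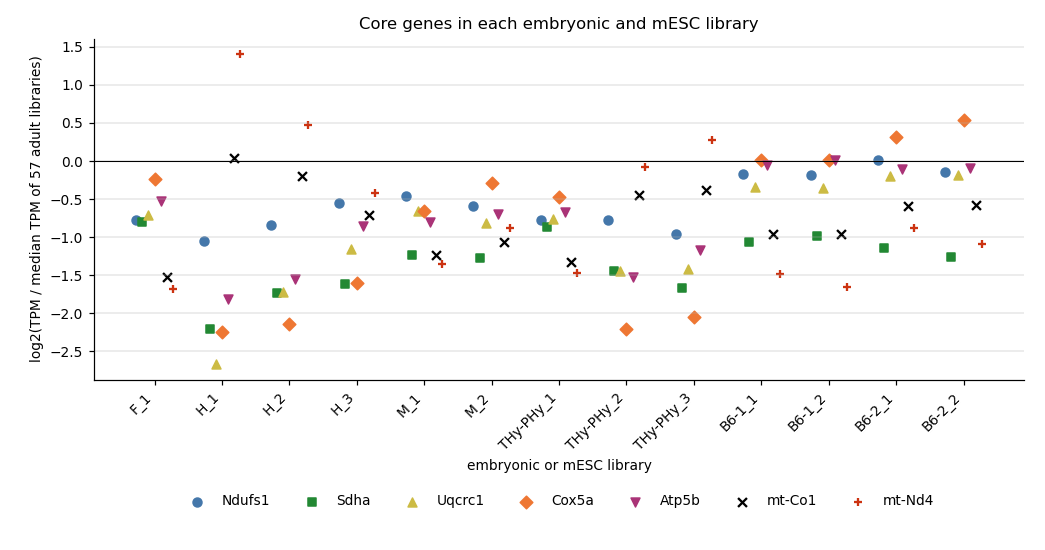
Level of 7 genes in each embryonic and mESC library as log2 of its TPM over the median TPM of the 57 adult libraries (y axis, 0 is the adult median), with 1 symbol per gene. Sdha lies below 0 in all 13 libraries, while mt-Nd4 lies above 0 in H replicates 1 and 2 and THy-PHy replicate 3 and below 0 in F, M and mESC.

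Mitochondrial transcripts were lower in embryonic brain for 10 of the 13 genes, with a median log2 fold change of -0.69, and 0 rose at either an adjusted or an unadjusted p under 0.05 in edgeR and 0 were called higher by DESeq2 or limma. mt-Nd3, a small complex I subunit, fell by 1.27 ± 0.35 (adjusted p = 0.00097, edgeR) and mt-Co1 by 0.96 ± 0.15 (adjusted p = 9.43e-08). mt-Cytb, the cytochrome b of complex III, was at -0.64, and the other complex I genes fell by 0.66 to 0.89. The genes not called were mt-Co2 (-0.12), mt-Atp6 (-0.08) and mt-Atp8 (-0.21). Leaving out the single F library reduced the called genes from 10 to 3, so that this count rests on 1 library, whereas the nuclear count then rose to 80.

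Matching regions across stages separated the 2 genomes further. Embryonic THy-PHy against the adult hypothalamus gave 71 of 82 nuclear members lower and 0 higher (edgeR, with 1 higher at an unadjusted p under 0.05, median -0.77), where 33.6% of all genes fell and 33.9% rose. Embryonic H against the adult hindbrain nuclei gave 79 lower and 0 higher at an adjusted or unadjusted p under 0.05 (median -1.47), where 34.2% fell and 36.6% rose. Atp5b fell by 0.64 in the hypothalamus and by 1.57 in the hindbrain, Cox5a by 1.18 and by 2.34, and Cox4i1 by 1.03 and by 1.98.

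The mitochondrial genes gave no such uniform result. In the hypothalamus 1 of 13 fell (mt-Nd3, -1.34), while in the hindbrain 10 of 13 rose, with a median of 0.94, and the opposite direction had 0 genes at an adjusted or unadjusted p under 0.05 in either region (edgeR). mt-Atp6, a proton channel subunit of the synthase, was 2.90 higher in embryonic hindbrain on the log2 scale (adjusted p = 9.74e-06, edgeR), mt-Co2 2.15 and mt-Atp8 2.04, whereas mt-Co1 was at -0.17 (adjusted p = 0.512). The rise in the hindbrain rests on H replicate 1. Without that library 1 mitochondrial gene rose and the median was 0.02, while 79 nuclear members still fell with a median of -1.43. Without H replicate 2 or 3, 9 or 11 mitochondrial genes rose. In the hypothalamus 3 mitochondrial genes rose and 0 fell at an adjusted or unadjusted p under 0.05 (edgeR) without THy-PHy replicate 1, and 2 fell without THy-PHy replicate 3, whereas the nuclear members that fell numbered 68 to 72 with any of the 3 libraries left out. The genes mt-Atp8 and mt-Atp6, and mt-Nd4l and mt-Nd4, overlap in the mitochondrial genome, and the reads of each pair may have been divided between them by the estimation.

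The size of the stage difference was compared between the matched regions by an interaction term, embryonic minus adult in the hypothalamus less the same in the hindbrain. This term also contains the difference between adult hindbrain nuclei and adult hypothalamus. Against the other adult regions, 63 of 82 nuclear members were called both lower in hypothalamus and higher in hindbrain nuclei. The part of that adult difference in the term was not tested. Nuclear members fell less in the hypothalamus: 67 of 82 had a positive term and 1 a negative one (median 0.74), where 15.3% of all genes had a positive and 15.1% a negative term. All 12 core genes were among the 67, with Cox5a at 1.16 ± 0.28 and Atp5b at 0.93 ± 0.14 (adjusted p = 1.04e-06, edgeR). Atp5g2 had the largest positive term (1.88 ± 0.48) and Cox6a2, the muscle form of subunit 6a, the negative one (-5.40 ± 1.08). Cox6a2 was near 0 TPM in H (at most 2.502), THy-PHy (at most 1.697) and adult hindbrain nuclei (at most 1.436). The size of its term therefore rests on values near the floor. Of the mitochondrial genes mt-Nd5 (-1.40) and mt-Nd6 (-1.55), both of complex I, were called negative and 0 positive at an adjusted or unadjusted p under 0.05. That pair of calls was lost without H replicate 1, without THy-PHy replicate 1, and without VTA replicate 1 and H replicate 1 together. The count was 1 without THy-PHy replicate 2, 5 without THy-PHy replicate 3 or VTA replicate 2, 6 without VTA replicate 1, 9 without H replicate 3, and 5 with DESeq2. mt-Nd6 lies on the strand opposite to the other 12 genes, and whether the counting used strand is not given in the sources used here.

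Markers of other cells moved with these groups. Summed neuron markers (8 genes) were 1174 to 3321 TPM in embryonic and 2926 to 7242 TPM in adult libraries, with H replicate 1 the lowest at 1174 TPM, and the oligodendrocyte markers (8 genes) were 43.42 to 95.19 TPM in embryonic libraries. Red cell markers (5 genes) were 3695 to 9805 TPM in embryonic and 406.3 to 6889 TPM in adult libraries, with FL (5382 to 6889 TPM) and UVU replicate 1 (4181 TPM) inside the embryonic range, and those of cycling cells 165.8 to 1226 TPM against at most 23.01 TPM in adult ones. Striated muscle markers (10 genes) were 174.1 TPM in H replicate 1 and 116.4 TPM in THy-PHy replicate 3, where H replicates 2 and 3 had 21.07 and 21.2 TPM. The part of these cells in the stage differences was not tested.

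Embryonic stem cells had higher levels of most nuclear members than embryonic brain. Of 82 members, 60 rose and 6 fell (22 rose more than 2-fold), where 38.7% of all genes rose, 38.9% fell and 26.8% rose more than 2-fold, and the median was 0.57. Complex III moved most as a group, with 7 of 8 members higher and a median of 0.99, followed by 14 of 17 of complex V. Of complex I, 25 of 36 rose and 5 fell, and of complex II 2 of 4 rose. By TPM, however, the nuclear share of complex I had a lower median in mESC (0.5745%) than in embryonic brain (0.6023%). The scale matters here: limma on log2(TPM + 0.5) placed the median of all genes at -0.23 and called 29 nuclear members higher and 7 lower, DESeq2 placed it at 0.15 and called 67 and 3, and edgeR placed it at 0. The direction of Sdhb, the iron-sulphur subunit of complex II, depended on it (0.03 ± 0.11 in edgeR, not called).

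Among core genes, Cox5a stood at 377.0 to 541.0 TPM in the 4 mESC libraries, above the 318.1 TPM of the highest embryonic library, and rose by 1.61 ± 0.18 (adjusted p = 1.18e-11, edgeR). Atp5b was at 1564 and 1634 TPM in B6-1 and 1508 and 1522 TPM in B6-2, above all 9 embryonic libraries, a log2 fold change of 1.28 ± 0.09. Ndufs1 was at 109.0, 108.5, 124.6 and 111.7 TPM in the same order, also above every embryonic library (1.14 ± 0.06). Sdha, at 144.3 to 174.2 TPM, overlapped the embryonic range and rose by 0.79 ± 0.05. Uqcrfs1, the Rieske iron-sulphur protein of complex III, was not called (0.17 ± 0.17, adjusted p = 0.383). The members called lower were Ndufa12 (-0.53), Ndufb2 (-0.48), Ndufa5, Ndufa8 and Ndufv3 of complex I and Cox4i2 (-2.43 ± 0.31), the form of subunit 4 known for its induction at low oxygen.

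Mitochondrial transcripts did not rise with them. Only mt-Co1 was called higher in mESC (0.47 ± 0.21, adjusted p = 0.0363, edgeR) and 0 of 13 lower at an adjusted or unadjusted p under 0.05, while DESeq2 called 1 higher and 0 lower and limma 0 higher and 2 lower. Without VTA replicate 1 and H replicate 1, edgeR called 4 higher. In mESC, mt-Co1 ran from 8982 to 11760 TPM and mt-Nd4, of complex I, from 2313 to 3961 TPM, inside the embryonic ranges of 6079 to 18010 and 2271 to 19290 TPM.

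**Figure D3:**
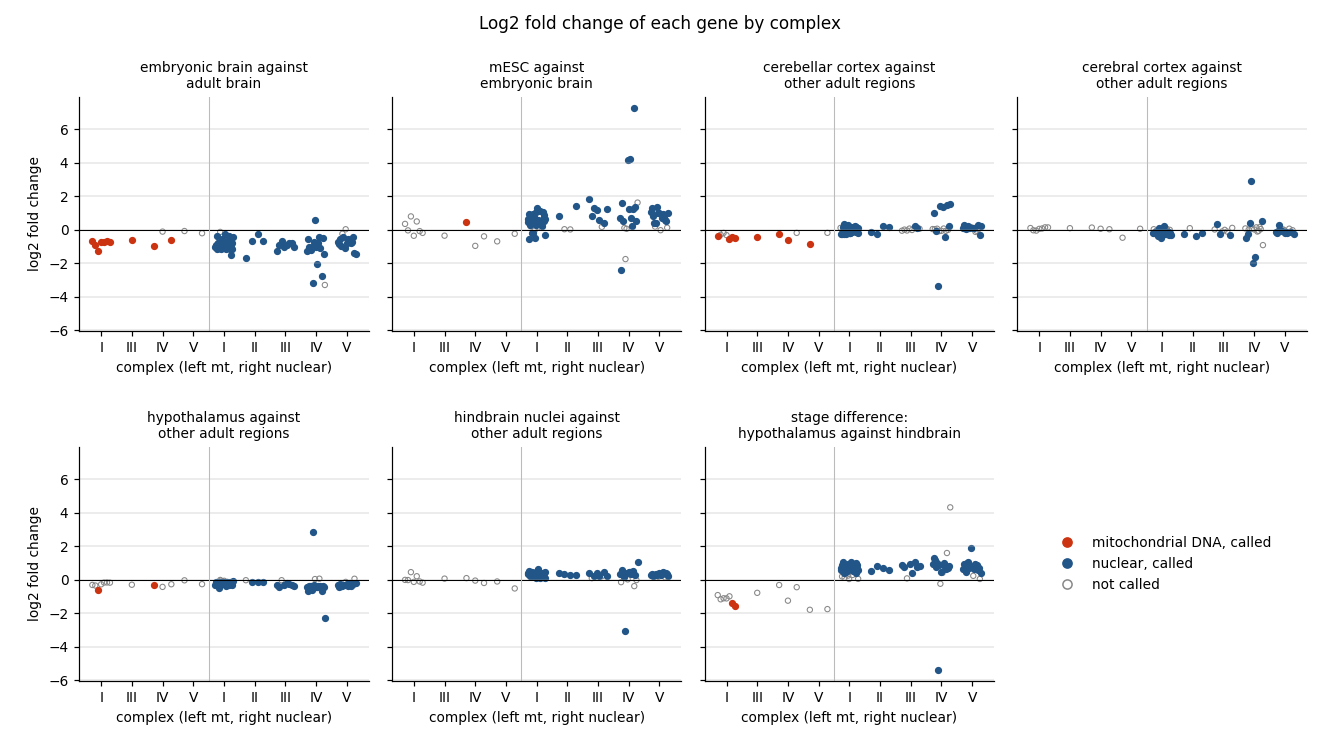
Log2 fold change (y axis) of each mitochondrial gene (left of the grey line) and nuclear gene (right) by complex, in each of the 7 comparisons, with filled points for genes called at an adjusted p under 0.05 in edgeR. Most nuclear points lie below 0 in embryonic brain and hypothalamus and above 0 in hindbrain nuclei, with exceptions such as Cox6b2 in embryonic brain (0.61), and Cox6a2 is far from the rest of complex IV in the 4 adult panels.

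Within the adult brain, the nuclear share followed a hindbrain to forebrain order. Means were highest in NTS (3.994% ± 0.262, SD, n = 4), DVC (3.948% ± 0.107, n = 3), FL (3.833% ± 0.15, n = 4) and CBN (3.752% ± 0.102, n = 3). They went on through PB (3.578%), CUL4-5 (3.465%), CENT2 (3.428%), UVU (3.399%), LHA (3.356%), VTA (3.08%), ACB (3.059%), ACA (2.974%), FRP (2.967%), DMH (2.927%), ENT (2.922%), PVH and VMH (both 2.859%), and ended with ARH (2.556% ± 0.163, n = 3). Of the 17 pairs of neighbours in this order, 15 overlapped in their libraries, and only CBN lay wholly above PB and VMH wholly above ARH. Of 82 nuclear members with a mean of at least 1 TPM, 29 had their highest region mean in DVC, 20 in NTS, 12 in FL and 9 in CUL4-5. The lowest mean was in VTA for 44 members, where VTA replicate 1 weighs on the mean, and in ENT and ARH for 14 each. Over the other 2 VTA libraries the mean nuclear share was 3.62%, above that of PB, so the place of VTA in the order rests on replicate 1.

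Differences between adult regions were small for most members. The standard deviation of log2(TPM + 0.5) over the 18 region means had a median of 0.254 over the members and 0.396 over the 16019 genes at 1 TPM or more, and it was under 0.3 for 67 members. Ndufb4 (0.098, mean 87.59 TPM), Uqcrc2 (0.116, 263.6 TPM) and Ndufb3 (0.138, 152.8 TPM) varied least. Cox6a2 (1.915), Cox8b (1.489) and Cox6b2 (1.044), the restricted forms of complex IV subunits, varied most.

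Hindbrain nuclei (PB, NTS and DVC) had higher nuclear respiratory expression than the mean of the other 15 adult regions. Of 82 members 71 rose and 1 fell, where 26.1% of all genes rose and 24.6% fell, and the median was 0.34. Complex I rose in 35 of 36 members, complex II in 4 of 4, III in 6 of 8, IV in 12 of 17 and V in 14 of 17. Without VTA replicate 1 the counts changed little (75 rose and 1 fell when it and H replicate 1 were left out). Mitochondrial genes gave 0 calls in either direction and 0 at an unadjusted p under 0.05 in edgeR, 0 calls in DESeq2 and limma, and a median of -0.05. Without VTA replicate 1 and H replicate 1, 1 mitochondrial gene rose (mt-Nd4l, 0.32) and the median was 0.09.

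Ndufb8, an accessory subunit in the membrane arm of complex I, was the complex I member with the largest rise. It ran from 743.1 through 868.4 to 1003 TPM in hindbrain nuclei (n = 10), from 427.7 through 551.1 to 685.8 TPM in hypothalamus (n = 14) and from 457.8 through 495.3 to 538.9 TPM in cerebral cortex (n = 9), so that no library of either group reached the hindbrain range (0.64 ± 0.06, adjusted p = 1.51e-12, edgeR). Sdha ran from 378.7 through 462.8 to 548.0 TPM in hindbrain nuclei (0.41 ± 0.03, adjusted p = 4.86e-19), and Cox5a from 367.6 through 529.7 to 670.8 TPM (0.58 ± 0.10). Cox6a2 was the 1 member that fell (-3.04 ± 0.46).

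The hypothalamus (ARH, VMH, DMH, PVH and LHA) showed the opposite pattern against the mean of the other 13 adult regions, a group that contains the hindbrain nuclei. Of 82 nuclear members 70 fell and 1 rose (median -0.26), where 24.3% of all genes fell and 26.9% rose. Complex I fell in 31 of 36 members, II in 3 of 4, III in 7 of 8, IV in 14 of 17 and V in 15 of 17. With limma on log2(TPM + 0.5) the number lower was 28. Atp5b ran from 885.1 through 1279 to 1615 TPM in hypothalamus (-0.41 ± 0.05, adjusted p = 2.98e-10, edgeR), whereas hindbrain nuclei ran from 1613 through 1826 to 2017 TPM. Cox4i1 ran from 829.6 through 1096 to 1454 TPM (-0.43 ± 0.06), and Ndufa4, a subunit long assigned to complex I and now to IV, from 512.2 through 684.0 to 846.9 TPM (-0.51 ± 0.04). Sdha was not called (-0.03 ± 0.03, adjusted p = 0.406).

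LHA stood at the upper end of the hypothalamus, with nuclear shares of 3.46%, 3.29% and 3.32% against at most 2.98% in the other 4 nuclei. Without LHA, 71 members fell, and without PVH, whose summed hypothalamus markers were low, 61 fell and 1 rose (median -0.25). Of the mitochondrial genes, mt-Nd3 (-0.62) and mt-Co1 (-0.32) fell in the hypothalamus and 0 rose at an adjusted or unadjusted p under 0.05. limma called neither, and the count was 1 without PVH as a whole (mt-Co1), 0 without PVH replicate 2, 1 without ARH replicate 3, DMH replicate 3, PVH replicate 1 or VMH replicate 1, and 5 without VTA replicate 2.

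Some cell markers differed along this order of regions. Summed oligodendrocyte markers were 10440 to 15790 TPM in hindbrain nuclei, 11520 to 18950 TPM in CBN, 9012 to 12100 TPM in FL and 11070 to 14430 TPM in LHA, against 1024 to 1712 TPM in ARH, 667.4 to 2222 TPM in cerebral cortex and 1401 to 3868 TPM in the other cerebellar cortex. VTA, in the middle of the order with replicate 1 and above PB without it, had 7799, 15110 and 15640 TPM of them. Choroid plexus and ependyma markers were 3557 to 12760 TPM in CBN, 10680 TPM in NTS replicate 1, 99.47 to 3084 TPM in FL and 2134 TPM in UVU replicate 1, against 3.585 to 12.04 TPM in cerebral cortex. Neuron markers were 5250 to 7171 TPM in hindbrain nuclei, 2926 to 4481 TPM in hypothalamus and 4708 to 7242 TPM in cerebral cortex. Over the 57 adult libraries, which share regions and library batches, the nuclear share had a Pearson correlation of 0.65 with the oligodendrocyte sum, 0.57 with the astrocyte sum, 0.45 with the neuron sum and -0.32 with the microglia sum (Spearman 0.65, 0.63, 0.47 and -0.47). The part of these cell types in the regional differences was not tested. The nuclear and mitochondrial shares had a Pearson correlation of -0.32 over the 57 libraries (Spearman 0.02), and of 0.04 over 56 without VTA replicate 1 (Spearman 0.07).

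The cerebral cortex (ACA, FRP and ENT) was lower than the other adult regions in part of the set. Of 82 nuclear members 38 fell and 8 rose (median -0.11), where 29.8% of all genes fell and 28.9% rose. Falls were most frequent in complex I (20 of 36), complex II (3 of 4) and complex V (9 of 17). Ndufs1 ran from 77.89 through 102.4 to 112.4 TPM in cerebral cortex, below every library of hindbrain nuclei (131.5 to 151.3 TPM) and cerebellar cortex (126.2 to 156.2 TPM), with a log2 fold change of -0.23 ± 0.04 (adjusted p = 1.81e-07, edgeR).

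In complex IV the cortex went the other way for some members. Cox8a, the common form of subunit 8, ran from 887.6 through 1156 to 1400 TPM in cortex and from 595.1 through 792.4 to 869.2 TPM in hypothalamus, and rose by 0.50 ± 0.07 in cortex. Cox6a1, the common form of subunit 6a, ran from 687.2 through 846.5 to 997.0 TPM in cortex (0.40 ± 0.06). The other members called higher were Cox6a2, Atp5d (0.30), Ndufa8, Ndufb4, Ndufb9 and Uqcr11, and limma called 3 members higher in place of 8. Mitochondrial genes gave 0 calls in either direction and 0 at an unadjusted p under 0.05 in edgeR, and 0 calls in DESeq2 and limma. Without VTA replicate 1 and H replicate 1, 1 rose (mt-Nd5, 0.27) and the median was 0.19.

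The cerebellar cortex (CENT2, CUL4-5, UVU and FL) differed in both directions. Of 82 nuclear members 30 rose and 18 fell (median 0.04), where 32.9% of all genes rose and 33.1% fell, so that the number of risers was near the background. Complex I was split, with 11 members higher and 12 lower, and complex V leaned upward, with 9 higher and 1 lower. The member of complex V called lower was Atp5s (-0.316), placed there by its symbol. Ndufa4 ran from 980.8 through 1071 to 1232 TPM in cerebellar cortex, above every library of hypothalamus and cerebral cortex (at most 846.9 TPM), and rose by 0.32 ± 0.04 (adjusted p = 3.49e-10, edgeR). Atp5b ran from 1642 through 1836 to 2105 TPM (0.26 ± 0.04). Sdha fell by 0.13 ± 0.02 in edgeR and was at 0.02 with limma.

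FL carried part of this. Its nuclear shares were 3.62%, 3.85%, 3.89% and 3.97%, and the other cerebellar cortex libraries had 3.18% to 3.73%. Without FL 16 members rose, and with limma 3 members fell in place of 18. Of the mitochondrial genes 8 fell in cerebellar cortex and 0 rose at an adjusted or unadjusted p under 0.05 (median -0.37). mt-Atp6 (-0.83), mt-Co2 (-0.62) and mt-Nd4l (-0.55) fell most, and limma called 1 of the 13. The other adult regions include VTA replicate 1, with mt-Atp6 at 46520 TPM and mt-Co2 at 30970 TPM. Without it and H replicate 1, 8 mitochondrial genes fell and 0 rose in edgeR, with a median of -0.27.

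The largest regional differences were in the restricted forms of complex IV subunits, all at low levels beside their common forms. Cox6a2 (ENSMUSG00000030785.8, chromosome 7, 128205435 to 128206387), known from heart and skeletal muscle, was found in cerebral cortex, ACB and hypothalamus and was low in the regions behind them. It stood at 18.26 and 28.0 TPM in PVH, 14.26, 17.62 and 20.52 TPM in ENT, 12.41, 11.31 and 14.33 TPM in ARH, 16, 16.72, 9.531 and 7.677 TPM in DMH, and 5.766, 3.525 and 2.876 TPM in LHA. The VTA libraries had 1.254, 1.342 and 1.709 TPM, and no library of cerebellar cortex, cerebellar nuclei or hindbrain nuclei exceeded 1.465 TPM, so that these groups did not overlap with cerebral cortex (6.86 to 20.52 TPM), ACB (7.393 to 12.82 TPM) or hypothalamus (2.876 to 28.0 TPM).

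Cox6a2 was called higher in cerebral cortex (2.91 ± 0.27, adjusted p = 1.05e-13, edgeR) and hypothalamus (2.85 ± 0.26) and lower in cerebellar cortex (-3.37 ± 0.39) and hindbrain nuclei (-3.04 ± 0.46), comparisons that share libraries. As a share of the Cox6a1 and Cox6a2 TPM together it had a median of 2.25% in hypothalamus, 1.429% in cerebral cortex and 0.0364% in cerebellar cortex. In embryonic brain it was at 0 to 2.502 TPM, with H replicate 1 the highest, and lower than in adult brain (-3.20 ± 0.62), a fold to which the F library at 0 adds a dependence on the prior count. Against the matched adult region it was -3.86 in the hypothalamus (adjusted p = 5.74e-06, edgeR) and 1.54 in the hindbrain (adjusted p = 0.0798, not called). The hindbrain fold compares values near 0, with adult hindbrain nuclei at most at 1.436 TPM. Striated muscle markers were 15.65 to 34.14 TPM in hypothalamus, 19.75 to 30.96 TPM in cerebral cortex and 9.574 to 28.86 TPM in cerebellar cortex, and parvalbumin interneuron markers were 77.89 to 465.0, 71.48 to 146.5 and 1312 to 1972 TPM. In embryonic brain the highest Cox6a2 levels were in H replicate 1 (2.502 TPM) and THy-PHy replicate 3 (1.697 TPM). These libraries also had the highest embryonic striated muscle sums (174.1 and 116.4 TPM). The part of either cell type in Cox6a2 was not tested.

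Cox8b (ENSMUSG00000025488.9, chromosome 7, 140898945 to 140900446), the muscle and brown fat form of subunit 8, was high in FL and the cerebellar nuclei. It stood at 5.995, 30.14, 54.22 and 57.87 TPM in FL, 10.12, 21.86 and 24.21 TPM in CBN and 8.111, 3.924, 9.084 and 3.819 TPM in NTS, and other adult libraries had at most 4.776 TPM, the value of VTA replicate 2. The FL libraries thus differ nearly as much among themselves as from other regions. Cox8b rose in cerebellar cortex (1.51 ± 0.36) and in hindbrain nuclei (1.04 ± 0.38, adjusted p = 0.0195, edgeR). In the hypothalamus it was called lower, with all 4 DMH libraries at 0, so that its fitted fold depends on the prior count and is no measure of size.

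mESC stood out in 3 other restricted forms. Cox6b2 (ENSMUSG00000051811.14, chromosome 7, 4751792 to 4753094) was at 185.6 and 197.8 TPM in B6-1 and 194.7 and 176.8 TPM in B6-2, against 6.999 to 27.17 TPM in embryonic brain and 1.252 to 38.4 TPM in adult brain. It made up a median of 32.65% of the Cox6b1 and Cox6b2 TPM in mESC, and at most 5.629% in any brain library. It rose by 4.17 ± 0.31 over embryonic brain (adjusted p = 8.39e-18, edgeR), while Cox6b1 was not called (0.06 ± 0.10).

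Cox7a1, the heart and muscle form of subunit 7a, was at 36.86, 36.62, 34.43 and 37.13 TPM in mESC and at 0.7211 to 5.546 TPM in embryonic brain (4.24 ± 0.23). In the adult brain it was at 14.94 to 30.53 TPM in cerebellar cortex and at 1.643 to 5.785 TPM in cerebral cortex, ranges that do not overlap. Cox7b2, a testis form, was at 14.69, 12.42, 23.61 and 17.27 TPM in mESC and at 0 to 0.5944 TPM in embryonic brain, with the F library at 0. Cox8c, another testis form, was listed at 0 in all brain libraries and stood at 1.077 and 0.5574 TPM in B6-1 and 1.383 and 1.937 TPM in B6-2, and it was too low to be tested. The summed striated muscle markers (10 genes) were 356.5 to 525.3 TPM in mESC, but Mylpf alone made up 347.4 to 515.6 TPM. Only 2 of these genes had a median of at least 1 TPM in mESC, so the sum does not show muscle cells. The part of Mylpf-expressing cells in these values was not tested.

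**Figure D4:**
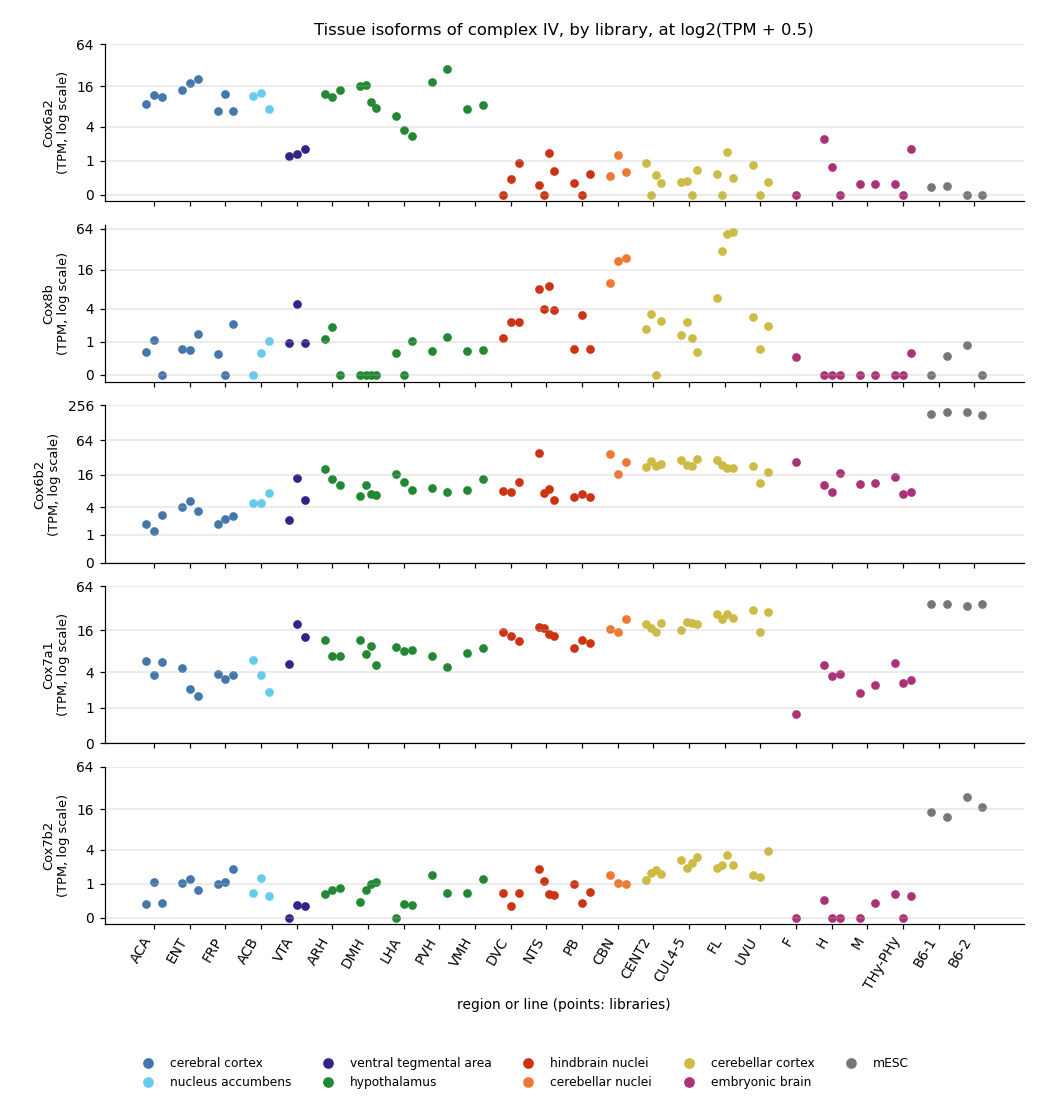
TPM of the restricted complex IV genes Cox6a2, Cox8b, Cox6b2, Cox7a1 and Cox7b2 in each library (log axis drawn at log2 of TPM + 0.5), by region or line. Cox6a2 is at 2.876 TPM or more in every library of cerebral cortex, ACB and hypothalamus and at 1.709 TPM or less in the remaining adult libraries, Cox8b peaks in FL and CBN, and the 4 mESC libraries lie above every other library in the lower 3 panels.

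Genes of the wider pathway were read from 8 lists, whose counts are set beside the shares of all genes tested that rose or fell in the same comparison. In embryonic brain, where 36.7% of all genes fell and 37.6% rose, 12 of 14 citric acid cycle genes fell and 1 rose. The genes that fell include Ogdh (-1.52 ± 0.04) and Idh3a (-1.89 ± 0.06), which encode the 2-oxoglutarate and NAD-dependent isocitrate dehydrogenase, and the riser was Idh2, the NADP-dependent isocitrate dehydrogenase (1.82 ± 0.05). Of 17 glycolysis genes 15 fell and 1 rose, with the neuronal enolase Eno2 at -5.17 ± 0.16, the aldolase Aldoa at -2.79 ± 0.06 and the hexokinase Hk2 at 1.03 ± 0.07. Assembly factors fell in 10 of 17 genes for complex I (3 rose) and 25 of 32 for complexes II to V (5 rose), and 8 of 12 genes of cytochrome c and coenzyme Q fell (1 rose). Of the complex I subunit genes outside the symbol rule, Ndufab1 fell and Ndufa4l2 rose.

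Of 11 regulators of mitochondrial content 4 fell and 6 rose in embryonic brain, where 36.7% of all genes fell and 37.6% rose. Ppargc1a, the coactivator PGC-1alpha, was at 3.018, 6.429 and 11.65 TPM (lowest, median and highest) in embryonic and 10.13, 22.67 and 38.17 TPM in adult libraries (-2.0 ± 0.11, adjusted p = 5.53e-23, edgeR), and its relative Ppargc1b fell by 3.58 ± 0.13. Nrf1, the factor of the NRF-1 motif, was at 33.17 to 61.24 TPM in embryonic and 10.2 to 25.34 TPM in adult libraries, without overlap (1.41 ± 0.06). Gabpb1, a subunit of the ETS factor GABP, rose by 1.48 ± 0.06. Genes for upkeep and transcription of mitochondrial DNA gave counts near the shares of all genes, with 15 of 30 higher, the helicase Twnk (0.87 ± 0.05) among them, and 11 lower, such as Lrpprc (-0.59 ± 0.04), which stabilises mitochondrial mRNA.

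In mESC against embryonic brain, where 38.7% of all genes rose and 38.9% fell, 26 of 30 genes of mitochondrial DNA upkeep rose and 3 fell, among the risers Lrpprc (1.77 ± 0.06) and Tbrg4 (2.21 ± 0.09). The citric acid cycle rose in 13 of 14 genes and cytochrome c and coenzyme Q in 11 of 12, and 0 genes of either fell at an adjusted or unadjusted p under 0.05 in edgeR or DESeq2. With limma on TPM 4 citric acid cycle genes rose and 2 fell. Of the regulators 8 rose and 1 fell, and assembly factors rose in 13 and fell in 3 of 17 genes (complex I) and rose in 17 and fell in 8 of 32 (II to V). Ppargc1a was the regulator that fell, to between 0.01208 and 0.1026 TPM (-7.42 ± 0.32). Glycolysis split into 10 higher and 7 lower. Hk2 rose by 4.78 ± 0.13 and Aldoa by 2.18 ± 0.06, and the neural forms Eno2 (-4.46 ± 0.23) and Aldoc (-3.16 ± 0.23) fell.

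In hindbrain nuclei, where 26.1% of all genes rose and 24.6% fell, 13 of 14 citric acid cycle genes rose and 0 fell (edgeR and DESeq2, with 1 lower at an unadjusted p under 0.05), with Ogdh at 0.40 ± 0.03 and Sucla2, of succinyl-CoA ligase, at 0.46 ± 0.04. Assembly factors rose in 9 of 17 genes for complex I, with 0 lower at an adjusted or unadjusted p under 0.05, and in 17 of 32 for II to V, with 2 lower, and glycolysis in 11 of 17 with 3 lower. Ldhb, the lactate dehydrogenase of oxidative tissues, rose by 0.52 ± 0.05 and Ldha fell by 0.57 ± 0.07. In hypothalamus, where 24.3% of all genes fell and 26.9% rose, 12 of 14 citric acid cycle genes fell and 1 rose, and 13 of 17 glycolysis genes fell and 1 rose. Ppargc1a was at 10.13, 17.82 and 30.35 TPM in hypothalamus (-0.56 ± 0.07) and at 20.85, 31.08 and 33.59 TPM in hindbrain nuclei (0.37 ± 0.07).

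In cerebral cortex, where 29.8% of all genes fell and 28.9% rose, 10 of 14 citric acid cycle genes fell and 1 rose, while 11 of 17 glycolysis genes rose and 2 fell, Ldha by 1.35 ± 0.06 and Aldoa by 0.59 ± 0.03 upward. In cerebellar cortex, where 33.1% of all genes fell and 32.9% rose, 11 of 17 glycolysis genes fell and 4 rose, with Hk2 at 1.54 ± 0.06, and 5 of 14 citric acid cycle genes rose and 4 fell. Regulators rose in 8 of 11 and fell in 2 there, Ppargc1b by 1.40 ± 0.06 upward, as did Polg2, the accessory subunit of the mitochondrial DNA polymerase (1.36 ± 0.07).

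The remaining lists are read against the same shares of all genes, and some of their counts lie near them. These shares were 26.1% higher and 24.6% lower in hindbrain nuclei, and 26.9% and 24.3% in hypothalamus. In cerebral cortex they were 28.9% and 29.8%, and in cerebellar cortex 32.9% and 33.1%. Genes of mitochondrial DNA upkeep rose in 14 and fell in 5 of 30 in hindbrain nuclei, rose in 6 and fell in 13 in hypothalamus, rose in 5 and fell in 14 in cerebral cortex, and rose in 15 and fell in 10 in cerebellar cortex. Tfam, which packages and transcribes mitochondrial DNA, rose by 0.30 ± 0.03 in hindbrain nuclei. Regulators rose in 4 and fell in 7 of 11 in hindbrain nuclei, with the oestrogen-related receptor Esrra at -0.90 ± 0.11 in hypothalamus, where 1 rose and 4 fell. In cerebral cortex 3 regulators rose and 6 fell. Between the matched regions, where 15.3% of all genes had a positive and 15.1% a negative term, the stage difference of the citric acid cycle had a positive term in 11 of 14 genes and a negative one in 0 at an adjusted or unadjusted p under 0.05 (edgeR and DESeq2), the glycolysis genes had 9 positive and 3 negative terms, and the assembly factors of complexes II to V had 16 positive and 1 negative.

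The composition of the mitochondrial transcripts also set VTA replicate 1 and H replicate 1 apart. mt-Co1 took 8.711% and 7.984% of the TPM of the 13 genes in these libraries, and 12.91%, 22.85% and 25.45% (lowest, median and highest) in the other 68. mt-Atp6 took 11.74% and 7.843%, against at most 6.773% and a median of 1.697%, and mt-Co2 7.817% and 8.355%, against at most 7.125% and a median of 3.28%. mt-Atp8, at 22.92% and 25.84%, lay inside the range of the others (9.094% to 26.65%). The excess of mitochondrial transcripts in these libraries was thus not evenly spread over the genes.

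**Figure D5:**
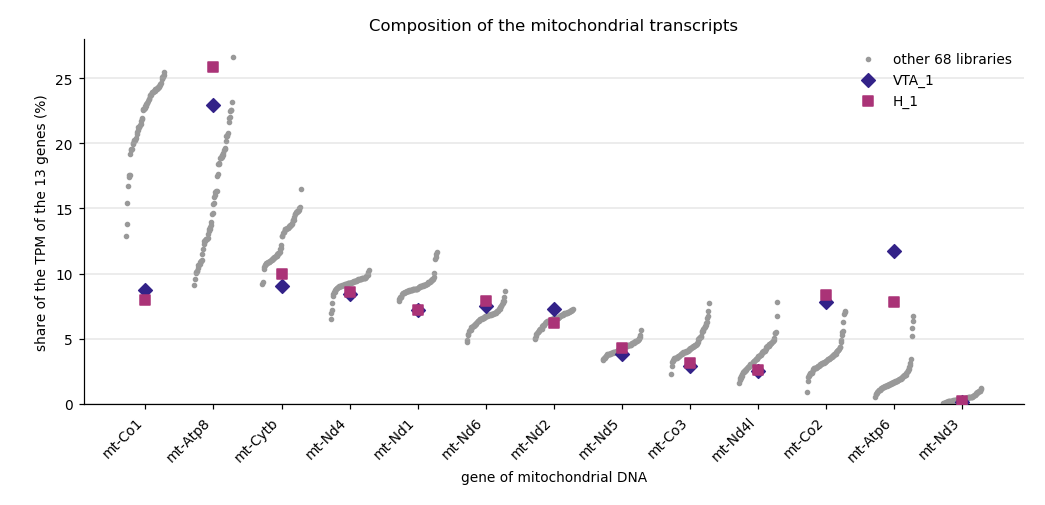
Share of each mitochondrial gene in the TPM of the 13 genes (y axis, %), with grey points for 68 libraries and symbols for VTA replicate 1 and H replicate 1. Both lie below all other libraries for mt-Co1 (8.711% and 7.984%) and above all others for mt-Atp6 (11.74% and 7.843%) and mt-Co2.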

How the data were processed

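Polyadenylated RNA was made into KAPA mRNA-seq libraries and sequenced as single reads on a HiSeq2000 (base calls with CASAVA 1.8.2). The authors ran Kallisto on the mouse cDNA of GRCm38 and deposited estimated counts per transcript, which are not normalized between libraries. They also deposited TPM per transcript and per gene, scaled within each library. Of 109282 transcripts, 98.81% were matched to a gene. The sum of the estimated counts of a gene was rounded to a whole number, and 0.42% to 0.77% of the counts of a library stayed unmatched.

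Counts were fitted with edgeR 4.0.16 (TMM, filterByExpr, quasi-likelihood test, 1 coefficient for each of 24 regions or lines, all 70 libraries) in R 4.3.3, and 7 comparisons of region means were tested, each two-sided and adjusted by Benjamini-Hochberg over 19980 genes. Alternatives used DESeq2 1.42.0, limma 3.58.1 on log2(TPM + 0.5) or log2(TPM + 0.1), no filter, other library sizes, a replicate block, fewer regions and libraries left out. Summaries used Python 3.11.15, pandas 2.3.3 and NumPy 2.4.6, and figures matplotlib 3.10.9. On simulated data for embryonic against adult brain (200 of 19980 genes changed), 186 changed genes passed the filter, 83 changed by log2 1 and 83 changed by log2 2 were called, and 8 unchanged genes were called. The simulation drew independent libraries, with regions alike apart from the added changes. In the data far more genes were called and libraries share animals, so it does not measure the error rate here.

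Members, gene lists and markers were chosen with earlier results of these data known. Genes named are all mitochondrial members, 12 core genes, the genes of isoform families, the 3 called nuclear members with the largest and the 3 with the smallest log2 fold change of each comparison, the 3 with the largest and smallest SD over adult regions, and up to 3 genes per list and direction with the smallest adjusted p. Ndufb8, Ndufa4, Cox6a1, mt-Nd4 and others outside a comparison's rule are given as values. The labels give groups and state no pairing. Serial numbers in them run through the regions in several passes that cross the replicate numbers. The labels do not tie them to the batches of the study, and neither was fitted. There were 0 columns of unlisted samples.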

Additional observations from a re-analysis of the deposited data

Results flagged for a closer look

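Within regions of 4 libraries, 135 groups of values were searched for a library whose gap to the nearest other was large beside the range of the group. It was found in 7, about the rate of 1 in 20 that chance gives. NTS replicate 4 accounted for 6 of them: its mitochondrial share was 12.41% beside 8.43% to 8.96% in the other NTS libraries, mt-Atp6 was at 3661 TPM (others 1513 to 1620), mt-Co3 at 8185 TPM (3350 to 3550), mt-Cytb at 13410 TPM (11570 to 11780), mt-Nd2 at 8796 TPM (5808 to 6278) and mt-Nd4 at 11030 TPM (7742 to 7840). These values come from 1 library and are not independent of each other. In CUL4-5 replicate 4 the nuclear share was 3.73%, with 3.37% to 3.38% in the other 3 libraries.

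The stage difference (embryonic minus adult) differed between hypothalamus and hindbrain by the interaction term in edgeR for 19 of the genes named. It was smaller in size in the hypothalamus for nuclear genes of all 5 complexes: Ndufs1 (0.50), Ndufv1 (0.90) and Ndufa4 (0.39) by their symbols in complex I, Sdha (0.54) and Sdhb (0.85), Uqcrc1 (0.94) and Uqcrfs1 (1.05), Cox4i1 (0.95), Cox4i2 (1.3), Cox5a (1.16) and Cox6c (0.44), and Atp5a1 (0.64), Atp5b (0.93), Atp5g2 (1.88), Atp5o (0.72) and, by its symbol only, Atp5sl (0.39), all on the log2 scale. Cox6a2 (-5.40, from values near the floor), mt-Nd5 (-1.40) and mt-Nd6 (-1.55) had terms of the opposite sign. All these terms also contain the difference between the adult regions, so they are not independent of the adult results. Leaving out THy-PHy replicate 1 reduced the nuclear genes with a positive term from 67 to 53. The calls of mt-Nd5 and mt-Nd6 were lost without H replicate 1 or without THy-PHy replicate 1.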

How the results depend on the processing

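Counts of called genes are given here where they moved by more than 1.5 times. Among mitochondrial genes, the 10 lower in embryonic brain became 1 with the hypothalamus only, 0 with the hindbrain only and 3 to 10 with 1 library left out. The 8 lower in cerebellar cortex became 1 with all 3 limma fits. The 2 lower in hypothalamus became 0 with all 3 limma fits, 1 without PVH and 0 to 5 with 1 library left out. The 2 with a negative stage interaction became 1 with the replicate block, 5 with DESeq2, 1 with all 3 limma fits, 0 without VTA replicate 1 and H replicate 1 and 0 to 9 with 1 library left out. Among nuclear genes, the 60 higher in mESC became 29 with limma at either pseudocount and 31 with limma on TPM rescaled to nuclear genes, and the 6 lower became 3 with DESeq2 and 10 with that rescaling. The 30 higher in cerebellar cortex became 16 without FL and the 18 lower became 3 with all 3 limma fits. The 8 higher in cerebral cortex became 3 with limma at either pseudocount and 4 rescaled. The 70 lower in hypothalamus became 28 at either pseudocount and 44 rescaled. By counts in place of TPM, the mESC to embryo ratio of the mitochondrial share was 0.78 (0.64 by TPM) and of the nuclear share 1.51 (1.21 by TPM). The cause of these changes was not tested. The rescaled limma fits, the fit without PVH and the fits without VTA replicate 1 and H replicate 1 were chosen after the data had been seen, as were the stage-matched fits without single H or THy-PHy libraries. In the comparison of mESC with embryonic brain the median of all genes was -0.31 with limma at the pseudocount of 0.1 and -0.26 rescaled.

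In the hindbrain alone, the embryonic difference turned positive for the median of the mitochondrial genes (0.94), for mt-Atp6 (2.90), mt-Atp8 (2.04), mt-Co2 (2.15), mt-Co3 (0.98, and 0.54 in the hypothalamus alone), mt-Cytb (0.64), mt-Nd1 (0.74), mt-Nd2 (0.83), mt-Nd4 (0.94), mt-Nd4l (0.41), mt-Nd5 (0.99) and mt-Nd6 (1.15), and for Cox6a2 (1.54). Sdhb in mESC turned to -0.37 with rescaled limma, and with limma at either pseudocount Sdha in cerebellar cortex turned to 0.02 and Ndufc2 in hypothalamus to 0.01. Over the genes named and all alternatives, 2140 values kept their direction and their side of the threshold, 157 lost the call, 52 gained it and 18 changed direction.

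Deviations from the region mean correlated at a median of 0.008 over 669 pairs of libraries with the same replicate number. The median was -0.004 over 1603 pairs with different numbers. Correlations above 0.1 were found in 51 and 77 of these pairs. Such medians cannot exclude pairing of some libraries, and they do not address shared animals. With the replicate block 77 nuclear genes were lower in embryonic brain, 66 lower in hypothalamus and 71 higher in hindbrain nuclei. Leaving out 1 library at a time kept the dispersion estimated from all libraries. It was run for 64 libraries, and for the remaining adult libraries it was not run. Counting noise limits only Cox8c and the restricted complex IV genes in regions where they are near 0 TPM.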
